A study of Homo sapiens with 8 samples.

Results

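Silencing of KHSRP in KYSE850 cells was accompanied by a rise of BCL2L11, the gene of the cell death inducer BIM, at 2 of its 3 tested probes. The mean over these 3 probes did not pass the test (limma adjusted p = 0.0516). BCL2L11 was among the 10 BCL2 family regulators of apoptosis examined: BCL2, BCL2L1, MCL1, BAX, BAK1, BBC3, PMAIP1, BCL2L11, BID and BIK. These 10 genes, of 20249 with a symbol on the array, were followed through probes whose RefSeq accession carries one of their symbols. The 15 such probes that passed the filter on dim probes are reported, and they cover all 10 genes. Any that did not pass it are not given. KYSE850 is an established human esophageal squamous cell carcinoma line. Its transcripts were profiled on 8 Agilent arrays with a single dye, and 4 arrays (control siRNA) held cells that received the control siRNA of the study, whereas the other 4 (KHSRP siRNA) held cells in which the RNA-binding protein KHSRP was silenced, with no further treatment or genotype named for either group. The study used several KHSRP siRNAs, and the labels do not say which of them an array holds, so that the results describe a single cell line with a knockdown of unstated siRNA sequence.

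BCL2 family proteins decide at the mitochondrial outer membrane whether a cell enters apoptosis. Anti-apoptotic members such as BCL2, BCL-XL (from BCL2L1) and MCL1 hold the pore-forming effectors BAX and BAK in check, and BH3-only proteins, among them BIM, PUMA (from BBC3), NOXA (from PMAIP1), BID and BIK, relieve this restraint or activate the effectors. In squamous carcinomas, as in other epithelial tumours, the balance between these classes is known to set how readily cells die under stress.

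The regulatory sequence of BCL2L11 is shown because it was the only member with probes that passed the test. RefSeq promoter windows of GRCh38.p14, which run from 250 bases before to 50 bases after a gene's start, were held for 8 of the 10 members (13 windows), and MCL1 and BIK were not among them. The window of BCL2L11 lies on the plus strand at chr2:111120664-111120963, and 74.7% of its bases are G or C. Capitals mark the forkhead core GTAAACA, which forkhead factors such as FOXO3 are known to bind, and the GC box GGGCGG, a site for SP1.
BCL2L11: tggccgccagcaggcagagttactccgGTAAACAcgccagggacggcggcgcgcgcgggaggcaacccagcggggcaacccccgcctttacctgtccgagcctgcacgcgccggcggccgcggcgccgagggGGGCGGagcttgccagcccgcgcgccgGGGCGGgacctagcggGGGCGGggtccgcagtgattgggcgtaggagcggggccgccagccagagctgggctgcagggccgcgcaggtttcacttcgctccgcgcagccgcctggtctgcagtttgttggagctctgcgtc
The forkhead core began 223 bases before the start and was present once, and GGGCGG was present 3 times. Searched on both strands, GTAAACA was found in 1 of the 13 member windows, that of BCL2L11, and in 3.42% of all 35116 windows of the table. GGGCGG was found in 9 of the 13 member windows, belonging to 6 genes, and in 45% of all windows. Of the 13 member windows 5 belong to BID, so that a gene can be counted more than once. The E-box CACGTG was found in 4 member windows, belonging to BAX, BBC3 and BID, and in 7.26% of all windows, and the cyclic AMP response element TGACGTCA in 0 member windows and in 1.85% of all windows. A match of letters describes the window and does not show binding.

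The knockdown was examined first. At probe A_23_P16157 the log2 level of KHSRP, expressed relative to the signal at the 75th percentile of the same array, fell from 6.08 ± 0.24 (SD, n = 4) in the controls to 2.71 ± 0.19 (SD, n = 4) in the silenced cells. This is a 10.4-fold fall to 9.66% of the control level (limma, adjusted p = 5.95e-05; exact permutation test, two-sided, p = 0.0286, the smallest that 4 arrays against 4 allow). The second KHSRP probe, A_24_P134235, was not well above background on any of the 4 KHSRP siRNA arrays and is given no fold.

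Between 45.1% and 49.4% of probes were well above background on an array, no spot was saturated, and 18761 of 42405 probes were tested. Replicates 1 and 2 of both groups shared a slide, as did replicates 3 and 4, so that values within each slide could be given. The deposited value table numbers the last pair of KHSRP siRNA arrays the other way round from the scanner files. Under the table's numbers all 4 pairs of equally numbered arrays of the groups deviated together. Under those of the scanner files only numbers 1 and 2, which both share, did so. A fit with the table's pairs as a block (the pair block) is given beside each result whose call it changed. The labels state no pairing, and these pairs were chosen from the same arrays, so that p-values with the pair block may be too small. Of 8 squamous epithelial markers, 7 were well above background on all 8 arrays, with KRT13 on some, and their summed signal, in multiples of the 75th percentile, ranged from 174 to 565 in controls and from 201 to 640 with KHSRP siRNA. All 5 endothelial markers and 5 of 6 fibroblast markers were not well above background on any array, with COL1A1 the exception, and of 6 leukocyte markers CD14 and CD68 were well above it on all arrays. Nothing in the labels says that the 4 samples of a group were separate cultures, so that p-values measure the spread between these samples, which may be technical.

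BCL2L11 rose with KHSRP siRNA at 2 of its 3 tested probes, and no other member passed the test. Of the 15 member probes, 2 were called (13.3%), that is, had a limma p under 0.05 after Benjamini-Hochberg adjustment over all tested probes, compared with 5.54% of all 18761 probes. Both calls were rises, compared with 1.92% of all probes called higher, and both belong to a single gene. At an unadjusted p under 0.05 the count was 3 (20%), with BIK added, which is near the 19.6% of all probes at that level. The 4 arrays of one group lay wholly above those of the other at 2 of 15 probes (13.3%), which is near the 14.8% of all probes. The median log2 fold change over the 15 probes was 0.19, beside 0.01 over all tested probes. In a bulk sample, a change in the number of cells with a transcript and a change in its amount per cell cannot be told apart.

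**Figure D1:**
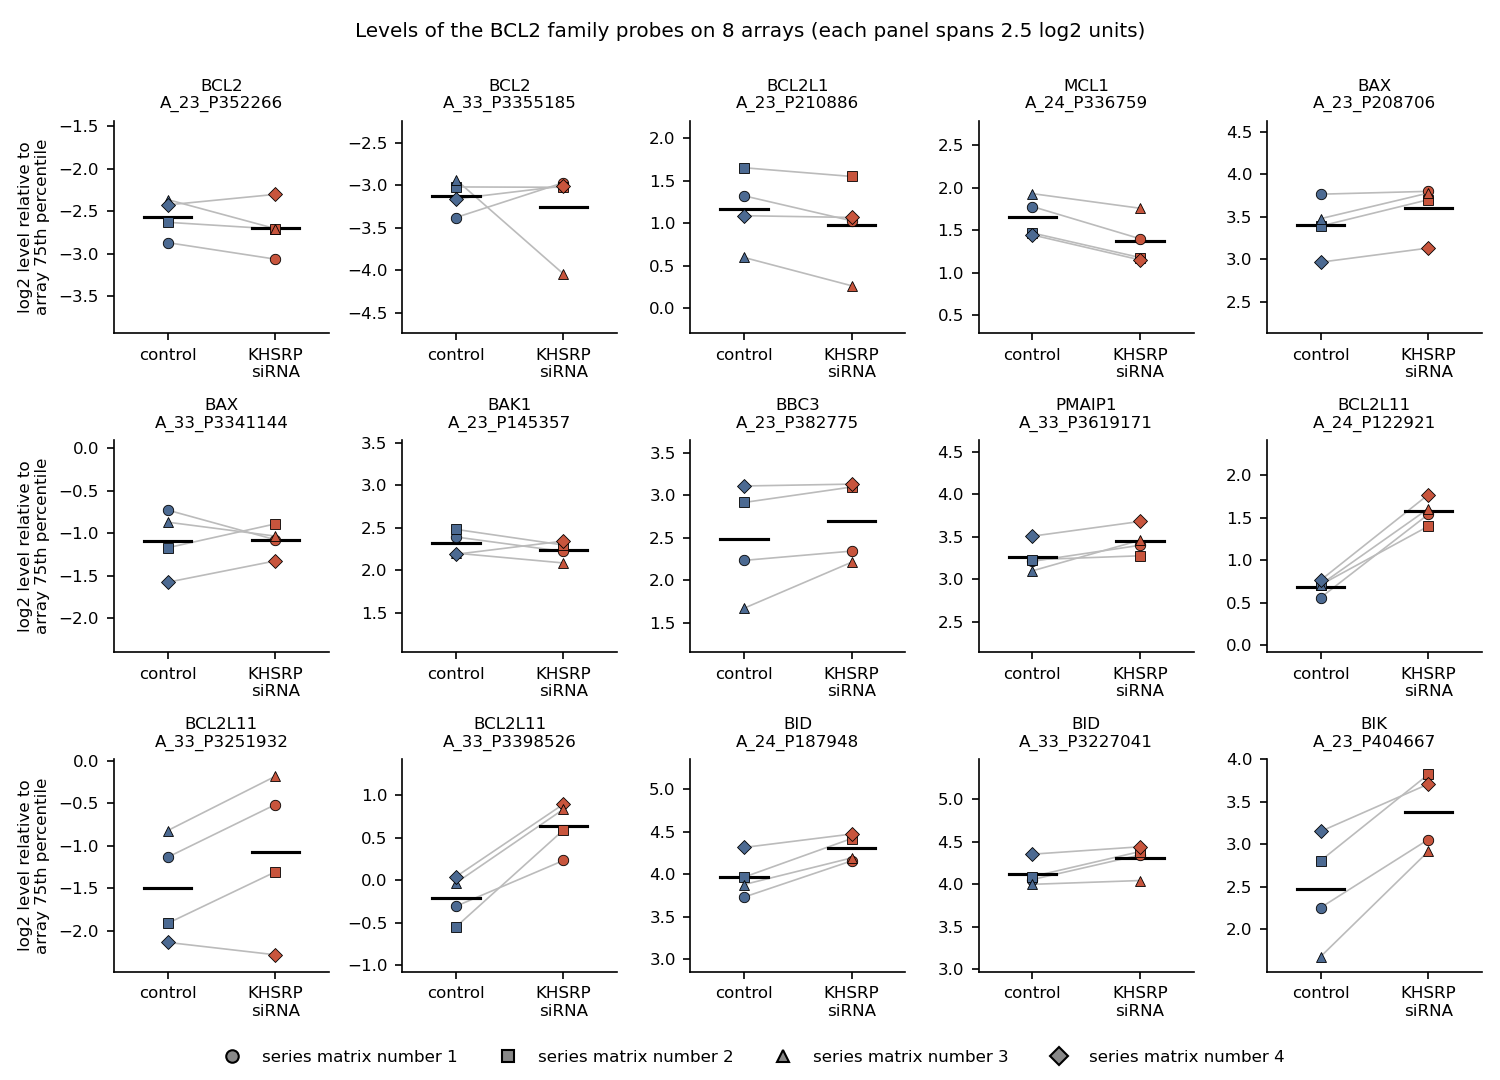
Log2 level of each of the 15 BCL2 family probes, relative to the 75th percentile of its array, on the 4 control siRNA arrays (blue) and 4 KHSRP siRNA arrays (red). Lines join arrays with the same number in the deposited value table, bars are group means, and every panel spans the same number of log2 units. At BCL2L11 probes A_24_P122921 and A_33_P3398526 all KHSRP siRNA arrays lie above all controls, and in the other 13 panels the groups overlap.

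The BH3-only genes held the largest changes. BIM, the product of BCL2L11, binds all anti-apoptotic members and can activate BAX directly. At probe A_24_P122921 the log2 level of BCL2L11 was 0.56, 0.71, 0.72 and 0.77 on control siRNA arrays 1 to 4 and 1.54, 1.40, 1.77 and 1.61 on KHSRP siRNA arrays 1 to 4. Every KHSRP siRNA array lay above every control, and the gap between the groups exceeded the range within either. The rise was 1.85-fold (log2 fold change 0.89, SE 0.12, 95% interval 0.62 to 1.16, limma adjusted p = 0.0047). It was called in each of the 8 fits that left out 1 array, with a slide block (adjusted p = 0.0051) and with the pair block (adjusted p = 0.0022), and not with the scanner files' replicate numbers as a block (adjusted p = 0.0592). The log2 difference was 0.83 within slide 1 and 0.95 within slide 2, and in the numbered pairs it was 0.98, 0.69, 0.89 and 1.01.

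At the second called probe of BCL2L11, A_33_P3398526, the log2 level was -0.31, -0.55, -0.03 and 0.04 in controls and 0.23, 0.59, 0.90 and 0.84 with KHSRP siRNA. The groups again did not overlap, although KHSRP siRNA replicate 1 lay closer to the highest control than to the other arrays of its own group. The rise was 1.80-fold (log2 fold change 0.85, SE 0.19, 95% interval 0.41 to 1.29, limma adjusted p = 0.0403). This call was less stable: with 1 array left out it was kept in 1 of 8 fits, that without KHSRP siRNA replicate 1 (adjusted p = 0.0340), and in the other 7 the adjusted p reached up to 0.118. The adjusted p was 0.0051 with the pair block and 0.0099 with the slide block. The call was lost with the scanner files' numbers as a block (adjusted p = 0.0766), with no filter on dim probes (0.150), with the methods' t-test (0.0738) and with normexp background correction (0.147), under which the log2 fold change was 0.52. The log2 difference was 0.84 within slide 1 and 0.86 within slide 2.

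The third probe of BCL2L11 behaved otherwise. At A_33_P3251932 the log2 level was -1.14, -1.92, -0.83 and -2.14 in controls and -0.52, -1.31, -2.29 and -0.19 with KHSRP siRNA. All controls lay within the range of the KHSRP siRNA arrays, and KHSRP siRNA replicate 3 was the lowest of all 8 arrays at this probe while it was the highest at the other BCL2L11 probes. The difference was 0.43 (log2, SE 0.48, 95% interval -0.67 to 1.52, limma adjusted p = 0.723; 0.0848 with the pair block). When the 3 probes were averaged before the fit, the log2 fold change of BCL2L11 was 0.72 and missed the threshold (limma adjusted p = 0.0516). The files give no probe positions on the transcripts of this gene, which is known to be spliced into several isoforms.

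BIK, a BH3-only protein of the endoplasmic reticulum, showed a difference of similar size to that of BCL2L11 with a much wider spread. Its log2 level was 2.26, 2.81, 1.68 and 3.15 in controls and 3.06, 3.82, 3.71 and 2.92 with KHSRP siRNA. Control replicate 4 lay above the lowest pair of KHSRP siRNA arrays, and the controls alone spanned more than the difference between the group means. This log2 fold change of 0.90 (SE 0.34, 95% interval 0.12 to 1.69) did not pass the test without a block (limma adjusted p = 0.186). It passed with the pair block (adjusted p = 0.0060), as each numbered pair was higher with KHSRP siRNA, by 0.80, 1.01, 1.24 and 0.56. Within slides the difference was 0.91 and 0.90.

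BBC3, which encodes the BH3-only protein PUMA, followed the same arrays as BIK without the difference between groups. Its log2 level was 2.23, 2.92, 1.67 and 3.11 in controls and 2.34, 3.10, 3.13 and 2.21 with KHSRP siRNA. In both groups a low and a high pair of arrays stood apart. Control replicates 1 and 3 and KHSRP siRNA replicates 1 and 4 lay at 2.34 or below, and the other 4 arrays at 2.92 or above. The same arrays formed the lower and higher pair of each group for BIK. This split was not particular to these genes: ATF4 and TNFRSF10D, outside the members, had it too, and TP63 had it reversed. In the deposited table's numbers the low arrays were 1 and 3 in both groups, and the high arrays 2 and 4. The pair block therefore takes up this split, and whether equally numbered arrays share more than it was not tested. The group means differed by 0.21 (log2, SE 0.36, 95% interval -0.60 to 1.02, limma adjusted p = 0.834). All 4 numbered pairs were higher with KHSRP siRNA, and the call did not change with the pair block (adjusted p = 0.168).

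BID, which links death receptors to the mitochondrion once caspase-8 cleaves it, was measured by a pair of probes. At A_24_P187948 the log2 level was 3.73, 3.97, 3.88 and 4.31 in controls and 4.16, 4.42, 4.47 and 4.19 with KHSRP siRNA. Control replicate 4 lay within the range of the KHSRP siRNA arrays, and the other controls lay below it. Its log2 fold change was 0.34 (SE 0.15, limma adjusted p = 0.271), and the adjusted p was 0.0242 with the pair block. At A_33_P3227041 the log2 fold change was 0.18 (SE 0.13), not called without a block (limma adjusted p = 0.547) or with it (0.128), so that only one of the probes passed in the paired fit.

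PMAIP1, the gene of NOXA, a BH3-only protein that binds MCL1, differed little. Its log2 level ranged from 3.10 to 3.51 in controls and from 3.28 to 3.68 with KHSRP siRNA. The groups overlapped, with a log2 fold change of 0.19 (SE 0.14, 95% interval -0.12 to 0.50, limma adjusted p = 0.518; 0.107 with the pair block).

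Neither effector was called. BAX, whose product forms pores in the mitochondrial membrane, had log2 levels of 3.77, 3.39, 3.48 and 2.97 in controls and 3.80, 3.70, 3.13 and 3.78 with KHSRP siRNA at its brighter probe, A_23_P208706. Array 4 of the controls and array 3 of the KHSRP siRNA group lay low, and the other 6 arrays lay together. The log2 fold change there was 0.20 (SE 0.21, 95% interval -0.28 to 0.69, limma adjusted p = 0.698; 0.0950 with the pair block). At the dimmer BAX probe, A_33_P3341144, the log2 fold change was 0.0047 (95% interval -0.44 to 0.45, limma adjusted p = 0.994), and its sign changed under quantile normalization and median scaling. BAK1, which encodes the second effector BAK, ranged from 2.19 to 2.48 in controls and from 2.08 to 2.34 with KHSRP siRNA, with a log2 fold change of -0.08 (SE 0.12, 95% interval -0.35 to 0.19, limma adjusted p = 0.811). The interval of BAK1 excludes a change of the size seen at A_24_P122921 of BCL2L11.

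All 4 probes of the 3 anti-apoptotic members had lower means with KHSRP siRNA, and 0 of them passed limma's test (0 also at an unadjusted p under 0.05, and with the pair block 1, that of MCL1). The BCL2 probes among them passed the filter on dim probes through the control arrays alone, which favours a lower mean with KHSRP siRNA. MCL1, a short-lived survival protein, had log2 levels of 1.78, 1.47, 1.93 and 1.44 in controls and 1.40, 1.18, 1.15 and 1.76 with KHSRP siRNA. KHSRP siRNA replicate 4 lay among the controls, and the other 3 arrays of its group lay below all of them. The log2 fold change was -0.28 (SE 0.18, 95% interval -0.69 to 0.12, limma adjusted p = 0.454). It passed with the pair block (adjusted p = 0.0265), the numbered pairs differing by -0.38, -0.29, -0.17 and -0.29.

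BCL2L1, the gene of BCL-XL, had log2 levels of 1.32, 1.65, 0.60 and 1.09 in controls and 1.03, 1.55, 1.07 and 0.26 with KHSRP siRNA. The groups overlapped, and the log2 fold change was -0.19 (SE 0.30, 95% interval -0.88 to 0.51, limma adjusted p = 0.829). All 4 numbered pairs were lower with KHSRP siRNA, without passing the test (adjusted p = 0.132 with the pair block), and the sign of the unpaired difference turned when KHSRP siRNA replicate 4 was left out (0.05).

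BCL2, the founding member of the family, was dim in this line: its probes A_23_P352266 and A_33_P3355185 were each well above background on all 4 control arrays and on 3 of the 4 KHSRP siRNA arrays. The log2 level at A_23_P352266 ranged from -2.87 to -2.36 in controls and from -3.06 to -2.30 with KHSRP siRNA. Differences between the group means were -0.12 (log2, SE 0.19) at this probe (limma adjusted p = 0.813) and -0.14 (SE 0.25) at the other (limma adjusted p = 0.852). Neither direction held with normexp background correction, under which both differences were slightly above 0.

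**Figure D2:**
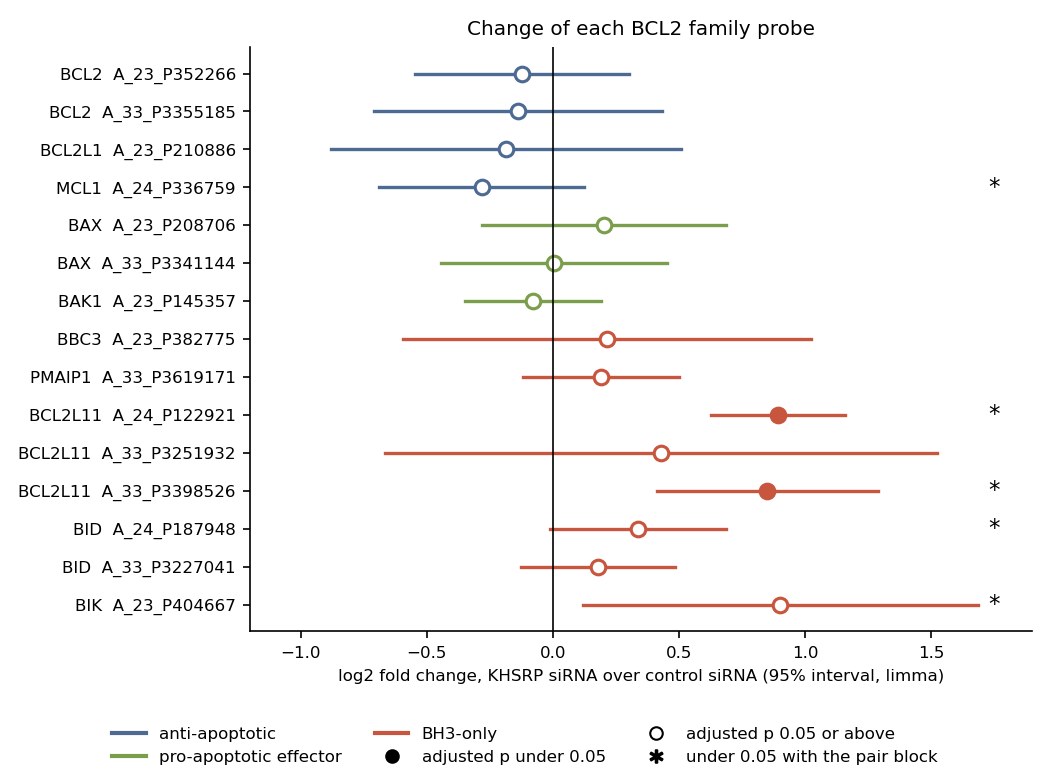
Log2 fold change (KHSRP siRNA over control siRNA) of each of the 15 probes with its 95% interval from limma, coloured by role, where filled circles mark an adjusted p under 0.05 and asterisks mark probes that pass when the numbered pairs are a block. The filled circles are the BCL2L11 probes at 0.89 and 0.85, and the asterisks add BIK, BID A_24_P187948 and MCL1.

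With the pair block 5 of the 15 member probes passed (33.3%): A_24_P122921 and A_33_P3398526 of BCL2L11, BIK and A_24_P187948 of BID as rises, and MCL1 as a fall. In that fit 30.1% of all 18761 probes passed, so that the share among the members was near that of all probes.

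The balance of the classes was described by the mean log2 difference of the 3 anti-apoptotic genes from their control means, minus the same mean over the 7 pro-apoptotic genes, with the brightest probe standing for each gene. The anti-apoptotic mean was -0.29, -0.08, -0.11 and -0.31 on KHSRP siRNA arrays 1 to 4, compared with -0.05 to 0.08 in controls, whose mean is 0 by construction. The pro-apoptotic mean was 0.28, 0.46, 0.49 and 0.19, compared with -0.27 to 0.19 in controls. On average the anti-apoptotic genes stood at -0.20 ± 0.12 (SD, n = 4) and the pro-apoptotic genes at 0.36 ± 0.14 (SD, n = 4). The 2 means lay on opposite sides of the control mean on all 4 KHSRP siRNA arrays, and for the pro-apoptotic genes the lowest of these arrays lay next to the highest control. Of the 10 genes behind these means, BCL2L11 alone was called, and the mean of BAK1 was lower rather than higher. BCL2, among the anti-apoptotic genes, passed the filter on dim probes through the control arrays alone, which favours a lower mean with KHSRP siRNA.

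The difference, anti-apoptotic minus pro-apoptotic, was 0.03, -0.05, 0.24 and -0.23 in controls and -0.57, -0.54, -0.60 and -0.50 with KHSRP siRNA, a mean of -0.56 ± 0.04 (SD, n = 4). The KHSRP siRNA arrays lay below all controls and closer to each other than the controls did. The difference was -0.55 within slide 1 and -0.56 within slide 2. As the members were chosen with earlier results of these arrays known, the difference is a description and carries no p. Without BCL2L11 it was -0.47, and without BCL2L11 and BIK it was -0.34.

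**Figure D3:**
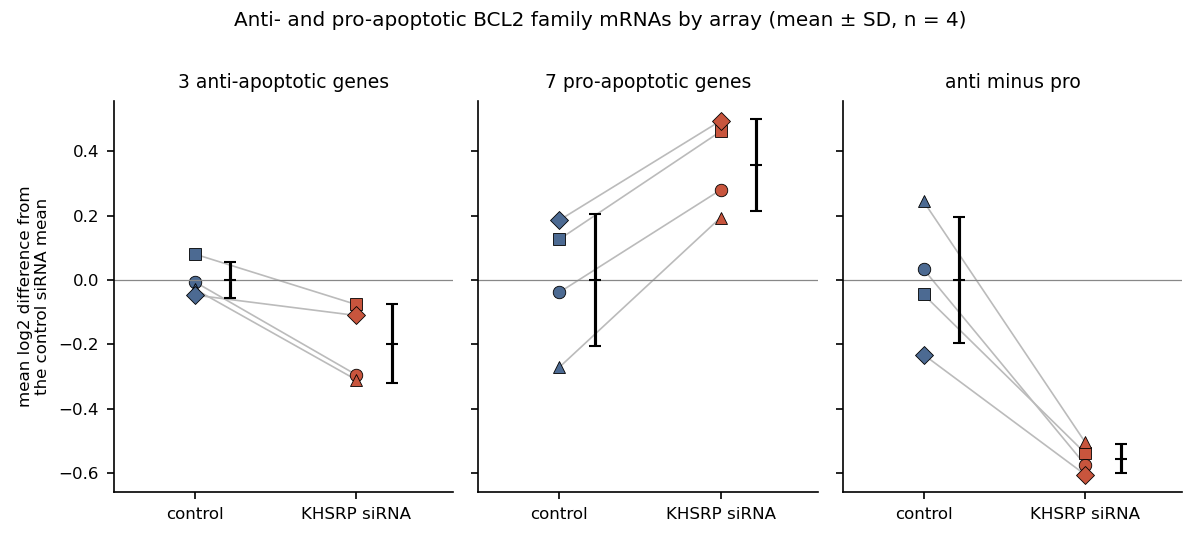
Mean log2 difference from the control siRNA mean for the 3 anti-apoptotic genes, the 7 pro-apoptotic genes and the former minus the latter, one point per array, with lines joining equally numbered arrays of the deposited value table and bars giving mean ± SD (n = 4). The anti minus pro values lie between -0.60 and -0.50 with KHSRP siRNA and between -0.23 and 0.24 in controls.

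Genes acting beside the BCL2 family were read from 6 lists, in which 63 genes were tested and 4 were called (6.35%), all lower with KHSRP siRNA. This share is near that of all tested probes, of which 5.54% were called and 3.62% were called lower. The list of inhibitors of apoptosis (IAPs) held 2 of these calls among 6 tested genes (33.3%). All 6 had lower means, although BIRC2, at a log2 fold change of -0.0040, was all but unchanged. The median log2 fold change of the list was -0.13, beside 0.01 over all tested probes. XIAP, a direct inhibitor of caspases, had log2 levels of 2.24, 2.21, 2.40 and 2.04 in controls and 1.35, 1.27, 1.32 and 1.46 with KHSRP siRNA at probe A_33_P3246990. The groups were well apart, with a log2 fold change of -0.87 (SE 0.11, limma adjusted p = 0.0047) that was called in all 8 fits leaving out 1 array, and not with the scanner files' numbers as a block (adjusted p = 0.0680).

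The dimmer XIAP probe, A_33_P3231187, had a log2 fold change of -0.60 (SE 0.22) and was not called (limma adjusted p = 0.174), with 2 of the 4 KHSRP siRNA arrays well above background. It passed with the pair block (adjusted p = 0.0218), and with normexp background correction the log2 fold change was -0.12 (adjusted p = 0.589). This probe passed the filter on dim probes through the control arrays alone, so that its fall adds no separate support. BIRC5, the gene of survivin, which acts in chromosome segregation as well as in survival, had log2 levels of 6.34, 6.42, 6.46 and 6.26 in controls and 5.58, 5.62, 5.78 and 5.70 with KHSRP siRNA. The groups did not overlap, and the log2 fold change was -0.70 (SE 0.10, limma adjusted p = 0.0080), called in all 8 fits leaving out 1 array. The call was lost with no filter on dim probes (adjusted p = 0.0689) and with the scanner files' numbers as a block (0.0708). The other tested IAP genes, BIRC2, BIRC3, BIRC6 and NAIP, had log2 fold changes between -0.15 and -0.0040 and were not called.

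Among 12 tested genes of the turnover of MCL1, BIM and NOXA proteins, 2 were called (16.7%), both lower, and the median log2 fold change was -0.05. USP13, a deubiquitinase known to stabilise MCL1, had a log2 fold change of -0.81 (SE 0.14, limma adjusted p = 0.0150), called in all 8 fits leaving out 1 array. With normexp background correction it was -0.46 (adjusted p = 0.0256). CUL5, the scaffold of a family of ubiquitin ligases, had a log2 fold change of -0.80 (SE 0.14, limma adjusted p = 0.0149), which lost its call without control siRNA replicate 2 (adjusted p = 0.0538). Both calls were lost with no filter on dim probes (adjusted p = 0.0835 for each) and with the scanner files' numbers as a block (0.0746 for USP13 and 0.0812 for CUL5). FBXW7, HUWE1 and USP9X, a group that adds or removes ubiquitin on MCL1, had log2 fold changes of -0.21, 0.13 and -0.15 and were not called. A dimmer HUWE1 probe, A_24_P932016, had -0.14 and was also not called, so that the direction of HUWE1 is not settled.

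No gene was called by limma in the other 4 lists. Of 10 tested further BCL2 family genes, 2 had an unadjusted p under 0.05 (20%, beside 19.6% of all probes), and 2 by the methods' t-test, of which 0 passed after adjustment. These were BNIP3, a mitophagy receptor with a BH3 domain, at 0.55 (SE 0.15, adjusted p = 0.0719 by limma), and BAD, a BH3-only protein that is silenced by survival kinases, at -0.48 (SE 0.13, adjusted p = 0.0722 by limma). Each had groups that did not overlap, in opposite directions, and both passed with the pair block (adjusted p = 0.0298 and 0.0062), as did BOK (0.28) as higher and BCL2A1 (-0.35) as lower.

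Of 12 tested apoptosome and mitochondrial factors, 0 were called by limma, and 0 had an unadjusted p under 0.05 by limma or by the methods' t-test. The nearest were VDAC3, a channel of the outer membrane, at -0.18 (limma adjusted p = 0.476), and CASP6, an effector caspase, at 0.20 (limma adjusted p = 0.496). Of 12 tested death receptor genes, 0 were called by limma, 1 had an unadjusted p under 0.05, and 1 was called by the methods' t-test. TRADD, an adaptor of the TNF receptor, stood at 0.38 (limma adjusted p = 0.0688), and CASP8, the initiator caspase that cleaves BID, at 0.34 (limma adjusted p = 0.264), and both passed with the pair block (adjusted p = 0.0158 and 0.0216).

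Transcription factors upstream of the family were also not called (0 of 11 by limma, and 0 at an unadjusted p under 0.05 by limma or by the methods' t-test). FOXO1, a forkhead factor, had a log2 fold change of 0.47 (limma adjusted p = 0.262), and DDIT3, a factor of the stress response of the endoplasmic reticulum, had -0.34 (limma adjusted p = 0.461, 0.0355 with the pair block). FOXO3, known to induce BCL2L11, had 0.16 (SE 0.12, limma adjusted p = 0.536).

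**Figure D4:**
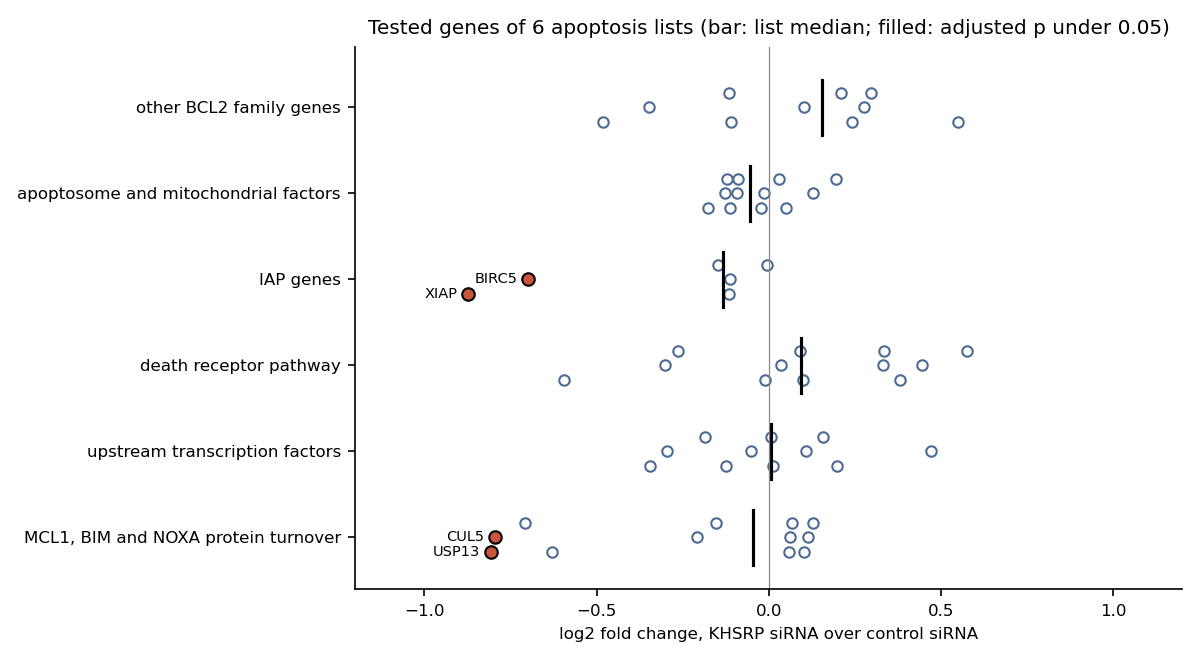
Log2 fold change (KHSRP siRNA over control siRNA) of each tested gene in 6 apoptosis lists, where filled red points are genes with an adjusted p under 0.05, open points are the rest, and black bars are list medians. The filled points are XIAP, BIRC5, USP13 and CUL5, between -0.87 and -0.70.

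The genes whose levels over the 8 arrays were most like those of BCL2L11 were found by Pearson correlation over 12124 other genes. For probe A_24_P122921 they were SLC25A36 (r = 0.99), AP5B1 (r = 0.99) and EIF4E2 (r = 0.98), and for A_33_P3398526 they were RTL10 (r = 0.99), PHOSPHO2 (r = 0.98) and MICOS10-NBL1 (r = 0.98). No gene appeared in both sets. Both probes were called for a difference between the groups. Over 8 arrays, other genes that differ between the groups likewise have a high r, so that these values show no particular link to BCL2L11.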

How the data were processed

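Per the file headers, the authors extracted each array with Agilent Feature Extraction 11.5.1.1 (the submitters' processing notes name 12.6). The deposited scanner values are background-subtracted fluorescence intensity. The authors' value table, made per the methods in GeneSpring, is in log2 units. Deposited flags (an outlier mark and a well-above-background mark) were used as given.

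Outlier and control spots were left out. The log2 signal was averaged per probe and set relative to each array's 75th percentile. Tests covered probes with a share of 0.5 or more of spots well above background on all 4 arrays of at least one group. RefSeq accessions gave a symbol to 27241 of 42405 probes (64.2%). Groups were taken from the labels and compared with limma 3.58.1 (lmFit, eBayes, two-sided) in R 4.3.3, with Benjamini-Hochberg adjustment over 18761 probes. The number of arrays, 4 per group, limits the precision. The fit was tested on simulated data.

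Equally numbered arrays were checked by the correlation of their deviations from group means: 0.52, 0.43, -0.67 and -0.64 with the scanner files' numbers, and 0.52, 0.43, 0.83 and 0.84 with the value table's numbers, in which KHSRP siRNA arrays 3 and 4 are exchanged. The latter were taken as pairs for this reason, as the labels state no pairing. Array names in the text are those of the scanner files.

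Members and lists were chosen with earlier results of these data known. A few further genes, with 1 list, are not reported here. Named were KHSRP, every tested member probe and up to 4 called genes of each list (or else the 2 of lowest adjusted p). The 3 genes most like each called member probe were also named. BIRC2, BIRC3, BIRC6, NAIP, FBXW7, HUWE1, USP9X, FOXO3, BOK, BCL2A1, ATF4, TNFRSF10D and TP63 were added after their values were seen. Alternatives changed the scaling, background correction, filter, block, weights, variance model, test and arrays. Leaving members out of the balance, or taking their median, was added after seeing the data.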

Additional observations from a re-analysis of the deposited data

Results flagged for a closer look

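Of 36 groups of 4 values examined, 3 held an array whose gap to the nearest value, as a share of the group's range, passed the limit of 0.829, and chance passes it in about 1 of 20 groups. KHSRP siRNA replicate 4 had a log2 level of -4.04 at BCL2 probe A_33_P3355185, with the nearest array at -3.02 (share 0.949). KHSRP siRNA replicate 3 had 3.13 at BAX probe A_23_P208706, with the nearest array at 3.70 (share 0.852). Control siRNA replicate 2 had -1.86 at KHSRP probe A_24_P134235, with the nearest array at -1.10 (share 0.832).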

How the results depend on the processing

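The count of called member probes (2 of 15) was 1 with normexp, with no filter on dim probes and with the methods' t-test, 5 with the pair block, and 1 to 2 with 1 array left out. With the scanner files' numbers as a replicate block it was 0 (2 at an unadjusted p under 0.05), where 156 of all probes passed, and within either slide alone 0 (2 unadjusted in each), where 2 arrays against 2 called 0 probes in limma (2112 and 1022 at an unadjusted p under 0.05). In these, KHSRP itself had limma adjusted p of 0.190 and 0.777 at log2 fold changes of -3.37 and -3.37. The count over all probes (1039) was 570 with median scaling, 319 with no filter, 5644 with the pair block, which changed no call of KHSRP probe A_23_P16157 or of member probes beyond BIK, BID A_24_P187948 and MCL1, and 489 to 766 with 1 array left out. Rises were 34.6% of the calls, and 17.2% with median scaling. List genes called (4) were 1 with no filter, 16 with the pair block, and 0 with the scanner numbers (8 unadjusted) and within slides (7 and 5 unadjusted). The anti minus pro difference was -0.40 with normexp, -0.34 without BCL2L11 and BIK, and otherwise -0.63 to -0.44.

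Signs that turned belonged to probes not called. BAX A_33_P3341144 was -0.00092 (quantile), -0.069 (median scaling), -0.026 (array weights), -0.034 (slide 1) and -0.16 to 0.12 with 1 array left out. BCL2 A_33_P3355185 was 0.0047 (normexp), 0.0052 (array weights), 0.20 (slide 1) and, with 1 array left out, -0.24 to 0.12 (without KHSRP siRNA replicate 4). BCL2 A_23_P352266 was 0.0098 (normexp) and, with 1 array left out, -0.25 to 0.00021 (without KHSRP siRNA replicate 1). BBC3 ranged from -0.057 (without control siRNA replicate 3) to 0.42 and BCL2L1 from -0.38 to 0.050 (without KHSRP siRNA replicate 4) with 1 array left out, and BAK1 was 0.020 on slide 2. BCL2L11 A_24_P122921 was called in 20 of 23 alternatives (0.67 to 0.95) and A_33_P3398526 in 10 of 23 (0.52 to 0.99). The cause of these differences was not tested.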

Other observations

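With the numbered pairs as a block, further genes of the apoptosis lists passed, in a fit in which 30.1% of all probes did. Among 12 tested death receptor genes TNFRSF10B, a receptor of the death ligand TRAIL, was higher (log2 fold change 0.44), as were TRADD and CASP8, and TNFRSF10A (-0.30), another TRAIL receptor, and TNFRSF1A (-0.26), a TNF receptor, were lower. Among upstream factors E2F1, which drives entry into S phase, was lower (-0.29), as was DDIT3. Among genes of the turnover of MCL1, BIM and NOXA proteins UBE2C, a ubiquitin-conjugating enzyme of mitosis, was lower (-0.63). Genes in this paragraph not named before were named after their values were seen.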
